A study of Arabidopsis thaliana with 18 samples.

Results

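The 3 genes described here encode an acyl-ACP desaturase family protein (AT5G16230), a GDSL lipase family protein (AT1G54790) and the carboxylesterase CXE20 (AT5G62180). They are 3 of the 13286 genes with a probe set of their own in the annotation of the Affymetrix ATH1 array, and they were chosen by their SND1 response: their signals were higher in Arabidopsis thaliana suspension cells in which the transcription factor SND1 had been switched on. The SND1 values that led to the choice are therefore given as a description, without a test. Each gene had 1 probe set, and all 3 passed the filter on dim signals, which asked for 3 or more of the 18 arrays with a signal at or above the 40th percentile of that array.

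The cells were of 3 kinds: wild-type culture cells (wt), cells transformed with an estrogen-inducible VND6 and cells transformed with an estrogen-inducible SND1. VND6 and SND1 are NAC transcription factors, known as switches of vessel and of fibre secondary wall formation. Each kind was sampled at 0 h and 12 h of treatment with 2 µM estrogen, with 3 arrays in each of the 6 groups. All groups received estrogen, so 12 h in culture and estrogen cannot be told apart in wt cells. The labels give neither the promoter of the constructs nor the number of clones behind a line. Whether the replicates were separate cultures is not stated in the labels; the p-values rest on the spread among these arrays, and part or all of it may be technical.

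Acyl-ACP desaturases are soluble plastid enzymes that put a double bond into a saturated fatty acid while it is bound to acyl carrier protein, the best known of them making oleate from stearate for membrane and storage lipids. GDSL lipases are a large plant family of hydrolases, named after the amino acids around the active-site serine, that cut esters of lipids, cutin monomers or wall polysaccharides. Carboxylesterases of the CXE family share the alpha/beta-hydrolase fold and cut small esters, and the gibberellin receptors GID1A, GID1B and GID1C belong to the same family. All of these reactions act on ester or acyl groups, but no substrate of the 3 proteins is named in the labels or annotation.

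The arrays had median signals of 103 to 133. Spearman's rho over the 15715 tested probe sets was 0.984 to 0.991 between replicates 2 and 3 of a group and 0.872 to 0.958 between replicate 1 and either of them. Some of the results below, not all, are therefore also given from replicates 2 and 3 alone. Signals of VND6 and SND1 themselves were not analysed here. Of 11 secondary wall and vessel marker genes 2 were named in the probe annotation used, which leaves many probe sets without a name. IRX15, which acts in xylan deposition, stood at 595 ± 105 in SND1 cells and 56.7 ± 21.1 in VND6 cells at 12 h, against 2.41 ± 0.935 in wt cells (SD, n = 3). The other, IRX15-L, stood at 154 ± 62.4 in SND1 cells, 61.3 ± 21.5 in VND6 cells and 4.72 ± 1.97 in wt cells at 12 h. Of 3 photosynthetic markers the single named gene, RCA, fell from 0 h to 12 h in every line, wt cells included. At 0 h it stood at 1083 ± 507 in wt, 653 ± 249 in VND6 and 660 ± 187 in SND1 cells. At 12 h it stood at 41.7 ± 8.75 in wt, 26.4 ± 9.56 in VND6 and 48.5 ± 7.13 in SND1 cells. No marker of the seed oil body, epidermis or endodermis lists was named, so the part of such cells in the values below was not tested.

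The desaturase gene AT5G16230 was bright in a single group, SND1 cells at 12 h. Its signals there were 334, 798 and 849 on replicates 1, 2 and 3, and in SND1 cells at 0 h they were 16.3, 3.57 and 18.3. In VND6 cells the signals were 11.8, 15.4 and 18.01 at 0 h and 5.16, 15.6 and 21.3 at 12 h, and in wt cells 63.2, 30.7 and 13.1 at 0 h and 1.35, 11.1 and 1.16 at 12 h. The lowest SND1 array at 12 h was thus 5.29-fold above the highest of the other 15 arrays, which was wt replicate 1 at 0 h. Of all tested probe sets, 1.95% had their 3 SND1 arrays at 12 h above the other 15 arrays. The gene passed the filter through these 3 arrays and wt replicate 1 at 0 h; its other 14 signals lay below the 40th percentile of their arrays.

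In the order of its group means on the scale of log2(signal + 4.32), used for every log2 value here, AT5G16230 stood at 9.26 in SND1 cells at 12 h. The order went on with wt at 0 h (5.11), VND6 at 0 h (4.26), VND6 at 12 h (4.08), SND1 at 0 h (3.95) and wt at 12 h (2.97). Each neighbouring pair after the SND1 group overlapped in its arrays. The SND1 response beyond wt, the change from 0 h to 12 h in SND1 cells minus that in wt cells, was 7.46 (SE 0.88), made up of 5.31 in SND1 cells and -2.14 in wt cells. By replicate number it was 7.61, 7.85 and 6.91, and from replicates 2 and 3 alone 7.38.

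In VND6 cells all 6 signals of AT5G16230 lay between the 9.17th and the 25.4th percentile of their arrays, and the gene was in the table of tested probe sets through the SND1 arrays, so its VND6 values are given without a test. The log2 change from 0 h to 12 h was -0.18 (95% confidence interval -1.505 to 1.14). By replicate number it was -0.76, 0.01 and 0.20, and without VND6 replicate 1 at 12 h the value was 0.23, of the opposite sign. The wt arrays at both times had a part in the choice of the 3 genes, so values set against wt are descriptions as well. The VND6 response beyond wt was 1.96 for AT5G16230 (SE 0.88). It came from the wt change of -2.14, since the change in VND6 cells was -0.18. At 0 h the gene stood at -0.85 in VND6 cells against wt.

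**Figure D1:**
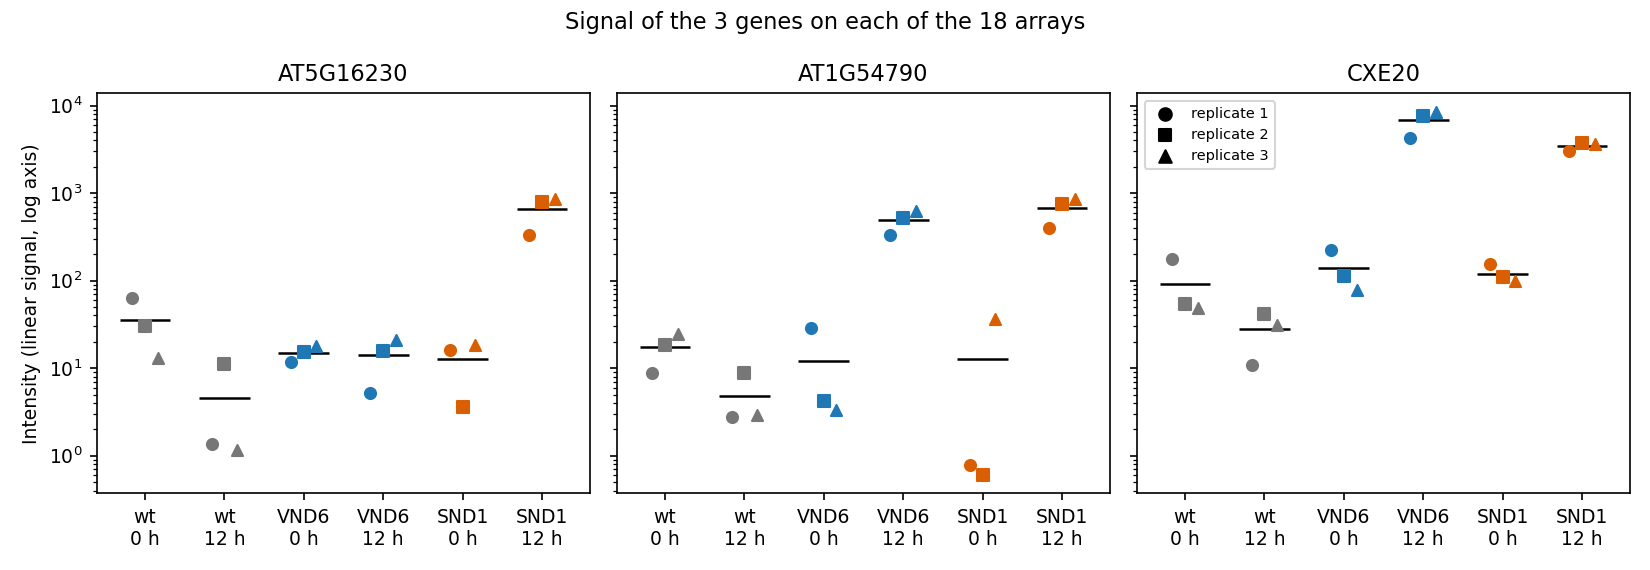
Signals of AT5G16230, AT1G54790 and CXE20 on each of the 18 arrays (linear signal on a log axis), with 3 arrays per group; symbols give the replicate number and black lines the group means. AT5G16230 lay at 334 or above on the 3 SND1 arrays at 12 h and at 63.2 or below elsewhere, whereas on the 6 VND6 and SND1 arrays at 12 h AT1G54790 lay at 331 or above and CXE20 at 3029.7 or above.

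The GDSL lipase gene AT1G54790 was bright at 12 h in both transformed lines. Its signals in SND1 cells were 0.793, 0.603 and 36.9 at 0 h and 400.1, 758 and 856 at 12 h. In VND6 cells they were 29.0, 4.23 and 3.34 at 0 h and 331, 519 and 621 at 12 h. In wt cells they were 8.91, 18.6 and 24.6 at 0 h and 2.79, 8.71 and 2.93 at 12 h. The 6 arrays of the transformed lines at 12 h lay above all other 12 arrays, by at least 8.96-fold between the nearest arrays, as they did for 6.2% of all tested probe sets. Only these 6 arrays reached the 40th percentile, so the 0 h levels are bounded poorly and spread widely, with a coefficient of variation of 164% in SND1 cells at 0 h.

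In VND6 cells, 28.8% of all tested probe sets rose from 0 h to 12 h. Of the 75 with an SND1 change at least that of CXE20, 57 changed by 4 log2 units or more in VND6 cells. AT1G54790 is in this set by construction, since the cut is a value of the 3 genes, and no share of all probe sets was counted. AT1G54790 rose there by 5.21 on the log2 scale (SE 0.73). It passed the filter only through the 6 arrays where it was high, so this rise is a description and no test is given. Its 3 SND1 arrays at 12 h alone would have carried it through the filter. Its mean went from 12.2 ± 14.6 to 490.2 ± 147 (SD, n = 3). By replicate number the rise was 3.33, 5.94 and 6.35. The VND6 response beyond wt, which shares the 6 wt arrays with the SND1 response, was 6.44 (SE 1.03), and it was 4.22, 6.75 and 8.35 by replicate number. At 0 h VND6 cells stood at -0.67 against wt, with all 6 signals below the 40th percentile of their arrays, and no test is given.

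The corresponding SND1 response of AT1G54790 beyond wt, part of the choice, was 7.23 (SE 1.03), with 5.99 in SND1 cells and -1.24 in wt cells. Without SND1 replicate 3 at 0 h, whose signal of 36.9 stood apart from the other two, it was 8.24. The mean level at 12 h was 672 ± 240.2 in SND1 cells and 490.2 ± 147 in VND6 cells, with overlapping arrays. In log2 group means the order was SND1 at 12 h (9.33), VND6 at 12 h (8.90), wt at 0 h (4.37), VND6 at 0 h (3.70), SND1 at 0 h (3.34) and wt at 12 h (3.13), and the only neighbours without overlap were VND6 at 12 h and wt at 0 h.

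CXE20 was high at 12 h in both transformed lines, and its highest group was VND6 cells rather than SND1 cells. Its signals in VND6 cells were 225, 112 and 77.5 at 0 h and 4237, 7506 and 8518 at 12 h. In SND1 cells they were 154, 109 and 98.9 at 0 h and 3029.7, 3745 and 3617 at 12 h. In wt cells they were 175, 54.6 and 48.4 at 0 h and 10.9, 41.6 and 31.5 at 12 h. All 3 VND6 arrays at 12 h lay above all 3 SND1 arrays at 12 h, as in 5.96% of tested probe sets, and at 12 h the signals stood between the 94.7th and 98.6th percentile of their arrays. Unlike the other two genes, CXE20 had signals at or above the 40th percentile on 14 of 18 arrays, among them all 6 arrays of the transformed lines at 0 h.

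CXE20 rose in VND6 cells by 5.64 on the log2 scale (SE 0.49, limma adjusted p = 1.37e-07), from 138 ± 77.1 to 6754 ± 2238 (SD, n = 3), with rises of 4.21, 6.01 and 6.70 by replicate number. The VND6 response beyond wt, again with wt arrays that had a part in the choice, was 7.14 (SE 0.69), with 5.64 in VND6 cells and -1.49 in wt cells. At 0 h CXE20 stood at 0.66 in VND6 cells against wt, and at 0.81 from replicates 2 and 3 alone; wt replicate 1 at 0 h, at 175, was the array that overlapped the VND6 group.

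The SND1 response of CXE20 beyond wt, a description, was 6.31 (SE 0.69), with 4.82 in SND1 cells and -1.49 in wt cells. By replicate number it was 7.83, 5.41 and 5.69, and the wt change was -3.56, -0.36 and -0.56, so wt replicate 1 carried most of the wt difference. At 12 h the VND6 mean was 1.95-fold the SND1 mean, and on the log2 scale the VND6 arrays stood higher by 0.48, 1.002 and 1.23 at the same replicate number. The order of log2 group means was VND6 at 12 h (12.66), SND1 at 12 h (11.75), VND6 at 0 h (7.02), SND1 at 0 h (6.94), wt at 0 h (6.36) and wt at 12 h (4.87), where the 3 groups at 0 h overlapped from neighbour to neighbour.

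**Figure D2:**
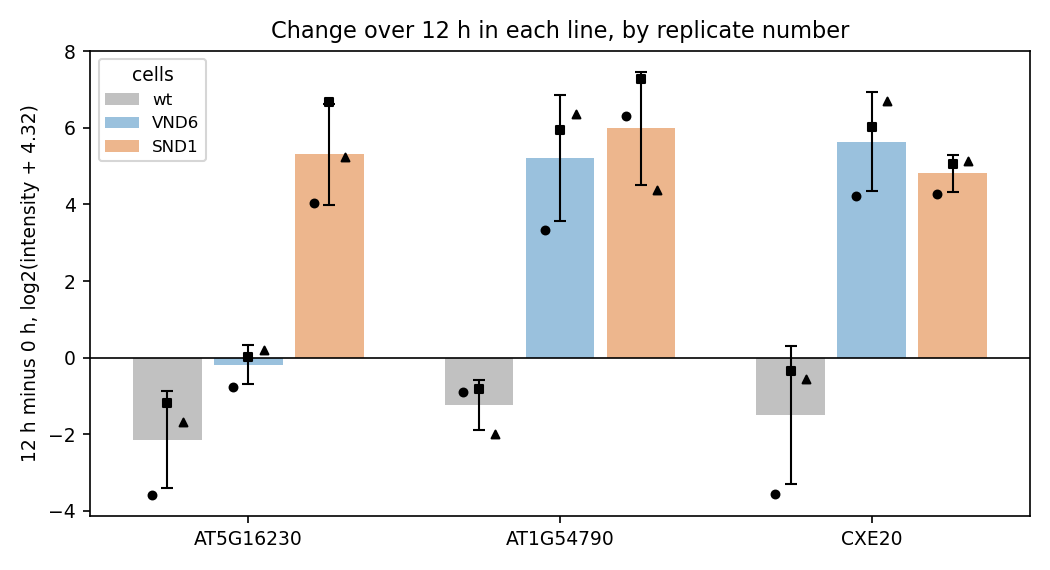
Change from 0 h to 12 h on the log2(signal + 4.32) scale in wt, VND6 and SND1 cells for each of the 3 genes. Bars are means over 3 replicate numbers, error bars SDs, and points the single numbers (circle 1, square 2, triangle 3). AT5G16230 had means of -2.14, -0.18 and 5.31 in the 3 lines, and the bars of AT1G54790 and CXE20 reached 4.82 to 5.99 in both transformed lines.

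Set side by side, the 3 genes shared a high level in SND1 cells at 12 h and a low level in wt cells at 12 h. In VND6 cells the 12 h arrays lay above the 0 h arrays for AT1G54790 and CXE20, as in 31.4% of tested probe sets, and the times overlapped for AT5G16230. In the wt cells the 0 h arrays lay above the 12 h arrays for all 3 genes, a pattern seen in 24.1% of tested probe sets; these arrays had a part in the choice of the genes. In this bulk measurement fewer cells with a transcript and less of it per cell cannot be told apart.

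Replicate 1 gave the lowest of the 3 signals at 12 h for all 3 genes in both transformed lines. The distance between the lines at 12 h spread less than the levels of either line for AT5G16230 and AT1G54790, while for CXE20 it spread more than the SND1 levels and less than the VND6 levels. AT5G16230 stood at -5.16, -5.33 and -5.06 in VND6 against SND1 cells on replicates 1, 2 and 3, and AT1G54790 at -0.27, -0.54 and -0.46. For AT5G16230 the 3 SND1 arrays lay above the 3 VND6 arrays, as in 15.4% of tested probe sets. Among all tested probe sets, 75 had a change in SND1 cells at least as large as that of CXE20. CXE20 had the smallest SND1 change of the 3 genes, so all 3 lie among the 75 by construction. Of the 75, 57 had a change of 4 log2 units or more in VND6 cells as well, and 3 had one under 1 log2 unit. Those under 1 were AT5G16230, AT1G52050 (5.29 in SND1 and 0.63 in VND6 cells) and a probe set without a name. AT1G52050 is named after its value was seen. The share of all tested probe sets at either VND6 limit was not counted, and no other cut is given. These counts are therefore a description, and how rare the pattern of AT5G16230 is was not tested with them. The changes in the 2 lines share no arrays.

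**Figure D3:**
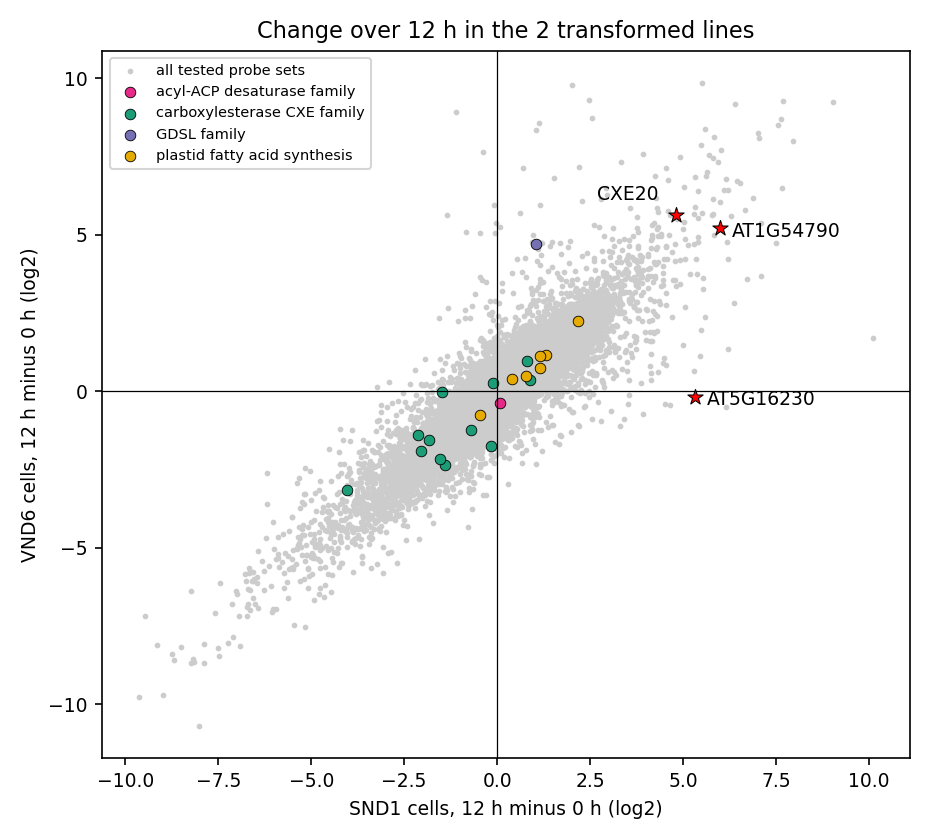
Change from 0 h to 12 h in SND1 cells (x axis, log2) and VND6 cells (y axis, log2) for all 15715 tested probe sets (grey), the 3 genes (stars) and the 21 other tested genes of their families and of plastid fatty acid synthesis (circles). AT5G16230 lay at 5.31 and -0.18, away from the diagonal cloud, and AT1G54790 (5.99 and 5.21) and CXE20 (4.82 and 5.64) lay toward its upper right.

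The families of the 3 genes and the pathway of plastid fatty acid synthesis were set beside them: 78 further genes on 4 lists. Of these, 32 were named in the probe annotation used and 21 tested. In the VND6 response beyond wt, 1 of the 21 rose (5.84% of all tested probe sets rose) and 2 fell (7.99%), and 18 did not pass. In the SND1 response beyond wt, 0 passed in limma, beside 3.47% of all probe sets higher and 2.4% lower, and 5 of the 21 had an unadjusted p under 0.05. For unadjusted p-values, here and in the single lists below, no share of all tested probe sets was counted. Those counts therefore stand without a background. With the replicate number as a block, 6 passed for VND6 (1 higher and 5 lower) and 2 for SND1 (both lower). The shares above belong to the fit without the block. None is given for the block, so these counts are not read as a result on the lists. From replicates 2 and 3 alone the counts were 10 and 9, in a setting in which 7585 and 5469 of all probe sets passed, and with them averaged 0 for VND6.

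Of the 6 other genes on the acyl-ACP desaturase list, AT3G02630 was tested. It was well expressed in all groups, with signals of 345, 393 and 387 in wt cells at 0 h and 708, 663 and 645 at 12 h. In VND6 cells it gave 802, 978 and 769 at 0 h and 634, 677 and 631 at 12 h, and in SND1 cells 568, 728 and 551 at 0 h and 641, 632 and 674 at 12 h. The 0 h groups thus lay apart while the 12 h groups came together between 631 and 708. The share of tested probe sets with this pattern was not counted. AT3G02630 fell in the VND6 response relative to wt by 1.22 on the log2 scale (SE 0.23, limma adjusted p = 0.00266), from a level 1.17 above wt at 0 h (limma adjusted p = 6.98e-04, beside 8.51% of probe sets that passed). Within VND6 cells its change of -0.38 did not pass (limma adjusted p = 0.0551), while in wt cells it rose by 0.84 (limma adjusted p = 3.55e-04). Its SND1 response of -0.75 did not pass (limma adjusted p = 0.0626) and did so with the replicate block (limma adjusted p = 0.0407).

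Of the 24 other genes on the GDSL list 9 were named, and AT3G48460 was the single gene tested. It gave signals of 3.34, 82.2 and 55.2 in VND6 cells at 0 h and 799, 911 and 968 at 12 h. In SND1 cells it gave 25.8, 29.3 and 29.6 at 0 h and 62.5, 61.4 and 65.1 at 12 h, and in wt cells between 15.6 and 37.0 at both times. All 3 VND6 arrays at 12 h therefore lay above every other array, a pattern whose share of all tested probe sets was not counted. Lying above the 3 SND1 arrays at 12 h alone was seen in 5.96% of them. AT3G48460 rose in the VND6 response beyond wt by 4.58 (SE 0.86, limma adjusted p = 0.00289), a call lost with replicates 2 and 3 averaged (limma adjusted p = 0.106). The SND1 response of 0.92 did not pass (limma adjusted p = 0.580), and the difference between the responses, 3.67, did not pass either (limma adjusted p = 0.0731, beside 0.745% of probe sets that passed). At 12 h itself AT3G48460 was 3.73 higher in VND6 than in SND1 cells (limma adjusted p = 0.00205, beside 1.04% of probe sets that passed as higher), where AT1G54790 stood at -0.43. The other 8 named GDSL genes had signals between 0.530 and 69.8 on all arrays and were not tested.

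None of the 12 other tested CXE genes passed in either response beyond wt by limma. For VND6 their log2 values ran from -1.61 to 2.497 with a median of -0.13, beside -0.22 over all tested probe sets, and 3 had an unadjusted p under 0.05, all lower. For SND1 the range was -1.85 to 1.29 and the median -0.26, beside -0.20, and 2 had an unadjusted p under 0.05, 1 each way. The values of the gibberellin receptors were -1.56 (GID1A), -1.61 (GID1B) and -0.25 (GID1C) for VND6 and -1.85, -0.68 and -0.38 for SND1, none of which passed. At 12 h itself, in VND6 against wt cells, GID1B (-2.04), AT1G47480 (-1.61) and GID1A (-1.30) passed as lower (limma adjusted p = 0.00108, 0.00929 and 0.0311). CXE16 (0.82) passed as higher (limma adjusted p = 0.0182). Of all tested probe sets 16% passed as lower and 11% as higher there. These genes are named after their values were seen. In wt cells 4 of the 12 fell from 0 h to 12 h (22% of all tested probe sets fell) and 1 rose (32.1% rose). Those that fell, named after their values were seen, were AT1G68620 (-3.64), AT5G06570 (-2.53), GID1C (-1.67) and CXE18 (-1.46), and AT3G27320 rose by 0.94. CXE20 itself stood at -1.49 in wt cells, within that range.

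Of 29 genes on the list of plastid fatty acid synthesis, which also holds acyl-ACP thioesterases, 7 were tested. In wt cells 4 rose and 1 fell, beside 32.1% and 22% of all tested probe sets, among them AT2G22230 by 2.88 (limma adjusted p = 1.08e-07) and FATB, an acyl-ACP thioesterase that releases saturated fatty acids, by 0.98 (limma adjusted p = 0.0168). In the VND6 response beyond wt, AT4G13050 fell by 1.23 relative to wt (limma adjusted p = 0.0437) and 6 did not pass. It went from 293 ± 64.6 to 409 ± 103 in VND6 cells and from 225 ± 46.3 to 738 ± 121 in wt cells (SD, n = 3). Its call was lost without any 1 of 8 of the 12 arrays compared, with an adjusted p up to 0.12: wt replicates 1 and 3 at 0 h, wt replicates 2 and 3 at 12 h, and VND6 replicates 2 and 3 at both times. No gene of the pathway list passed in the SND1 response by limma, where 2 had an unadjusted p under 0.05, both lower, and values ran from -0.94 to 0.35. No gene of the lists for membrane desaturases (11 genes) or for cutin, suberin and wax (17 genes) was named in the probe annotation used. Many probe sets carry no name there, so these genes may still be on the array.

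**Figure D4:**
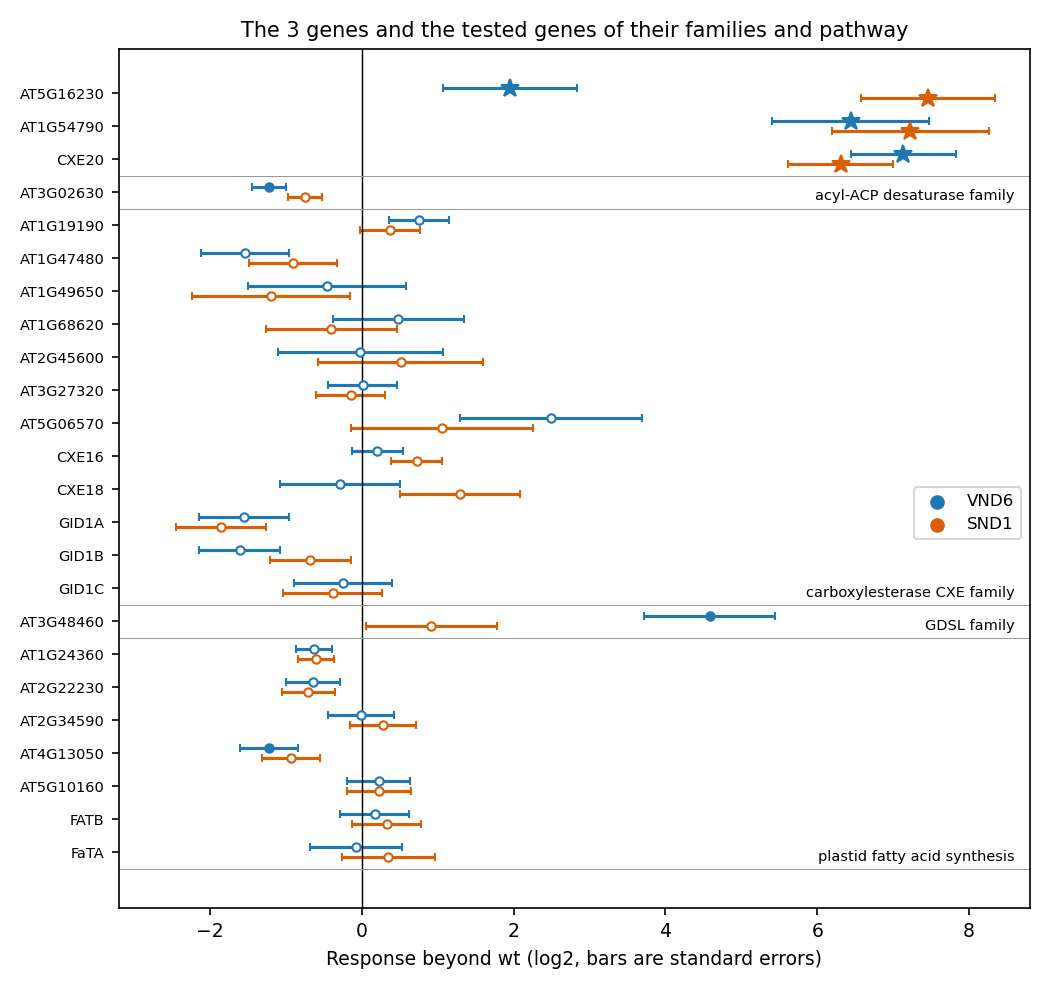
Response beyond wt (log2, bars are standard errors) of the 3 genes (stars, top) and of the 21 other tested genes on 4 lists (circles), for VND6 (blue) and SND1 (orange). Filled circles mark a limma adjusted p under 0.05; for the starred genes fill has no meaning. Of the 21, AT3G48460 rose (4.58) and AT3G02630 (-1.22) and AT4G13050 (-1.23) fell in the VND6 response, and none passed in the SND1 response.

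The genes beside each of the 3 on its chromosome, in the order of protein-coding genes in the RefSeq annotation, gave no call in either response where they were tested. The gene next to AT5G16230 is AT5G16240, also on the acyl-ACP desaturase list, and its group means lay between 15.2 and 24.6 in all 6 groups, too dim to be tested. On the other side AT5G16220 and AT5G16210 had SND1 responses beyond wt of 0.09 and 0.68, which did not pass (limma adjusted p = 0.892 and 0.252). Further on, AT5G16250 went from a mean of 34.7 to 193 in SND1 cells, and its response beyond wt did not pass (limma adjusted p = 0.164). Beside CXE20, AGL42, TRM25, PRH75 and AT5G62200 had SND1 responses of -0.25, -0.89, -0.68 and 0.54 and VND6 responses of -0.18, -0.20, -0.84 and -0.18, and none passed. Of the 4 genes beside AT1G54790, AT1G54820 was named and was too dim to be tested, with group means of 7.37 to 15.3.

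For each of the 3, the 5 named genes with the highest Pearson correlation of log2 values over the 18 arrays were listed; these points share lines, times and replicate numbers, so the r is a description. For AT5G16230 they were AT2G43880 (r = 0.938), AT3G03770 (0.900), AT3G56230 (0.879), AT5G40510 (0.875) and AT5G57500 (0.873). AT2G43880 stood at 1053 ± 373 in SND1 cells at 12 h and between 73.4 and 119 in the other groups. For AT1G54790 they were AT4G18425 (0.957), AT3G24840 (0.953), AT1G28100 (0.942), AT1G29200 (0.941) and AT3G49190 (0.938). AT3G49190 reached 1185 ± 501 in VND6 and 1238 ± 490.4 in SND1 cells at 12 h.

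For CXE20 the 5 were AT5G61340 (r = 0.973), AT5G60530 (0.955), AT1G67930 (0.955), IQD30 (0.953) and AT1G75280 (0.952). IQD30, named for the IQ calmodulin-binding motif, stood at 1563 ± 675 in VND6 and 685 ± 66.6 in SND1 cells at 12 h, with the VND6 mean above the SND1 mean as for CXE20. AT1G75280 did likewise, at 3582 ± 180.4 and 1450.0 ± 194 (SD, n = 3), as did AT5G61340, at 1232 ± 682 and 528 ± 79.9. AT1G67930 stood closer, at 1051 ± 198 and 911 ± 80.9, and AT5G60530 had the lower mean in VND6 cells, at 3568 ± 1681 and 3661 ± 1506. Between the 3 genes themselves the r was 0.914 for AT1G54790 with CXE20, 0.639 for AT1G54790 with AT5G16230 and 0.560 for CXE20 with AT5G16230. None of the 3 was among the 5 nearest of another.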

How the data were processed

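The files hold the authors' deposited intensity of each probe set on each array, a linear signal; GCOS is named as the software, per the submitters' processing notes, without a version. All 18 arrays had a trimmed mean of 500.0 to 500.1, so the values were taken as already scaled and were used unchanged, which assumes that most transcripts do not move. The labels name 2 labelling kits and do not tie a kit to an array. Detection calls and promoter sequences were not used here.

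From these values, log2(value + 4.32) was computed, with the 10th percentile of the table as pseudocount; it understates folds of dim genes. Of 22810 probe sets, 64 controls were dropped and 15715 reached the signal minimum described in the report. Of 13513 probe sets with 1 gene, 13436 were matched to RefSeq, which served for names and gene order only; 503 had several genes and were not named. Where several probe sets stood for a gene, the brightest was used. The means of the 6 groups were estimated from all 18 arrays by limma 3.58.1 (lmFit, then eBayes with trend; R 4.3.3). P-values are 2-sided and were adjusted by Benjamini-Hochberg over all tested probe sets, with calls under 0.05. With 3 arrays a group, precision is limited by their number. The scripts were tested on simulated data. For the 3 genes, p-values against wt are left out of the report, since wt arrays had a part in their choice. For the change in VND6 cells a p-value is given for CXE20 and left out for AT5G16230 and AT1G54790, which passed the filter through arrays where they were high.

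The 3 genes, the lists, the tests and the alternatives were chosen with earlier results of these data known. Named were the 3 genes, every tested gene of a list with 6 or fewer tested, in longer lists the called genes with the smallest adjusted p in the responses (up to 3 each way for SND1 and 2 for VND6), the 5 nearest patterns, and the 2 neighbours on each side. Further genes were named where a small count asked for it, as were the gibberellin receptors and FATB, after their values were seen. Alternatives were the pseudocount, the filter, quantile normalization, the arrays in the fit, the replicate block, replicates 2 and 3 alone or averaged, and leaving out each array. Same-numbered arrays deviated together between the times in VND6 cells (r = 0.205 to 0.308), wt cells (0.255 to 0.380) and SND1 cells (0.188 to 0.326), so the numbers were taken to pair these; the highest r between different numbers was 0.196, 0.290 and 0.173, in wt cells above the values of numbers 2 and 3. Between wt and SND1 cells at 12 h r was 0.228 to 0.451, and between wt and VND6 cells 0.0230 to 0.186 at 0 h and 0.0918 to 0.172 at 12 h.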

Additional observations from a re-analysis of the deposited data

Results flagged for a closer look

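Responses that differed between a transformed line and wt cells by the interaction of line and time in limma are listed here with their log2 values. For VND6 they were 4.58 for AT3G48460, -1.22 for AT3G02630, -1.23 for AT4G13050 and 3.01 for IRX15. For SND1 they were 6.57 for IRX15 and 4.52 for IRX15-L, and the VND6 response of IRX15 minus its SND1 response was -3.56. The VND6 responses beyond wt of AT1G54790 (6.44) and CXE20 (7.14) are listed as descriptions, without a test. The wt arrays behind these values had a part in the choice of the 2 genes. With replicates 2 and 3 averaged, the VND6 calls of AT3G48460, AT3G02630 and AT4G13050 were lost (adjusted p = 0.106, 0.183 and 0.485), as were those of IRX15 for VND6 (0.211) and IRX15-L for SND1 (0.120). The VND6 call of IRX15 was also lost from only the arrays compared (adjusted p = 0.0549). For AT5G16230 (7.46), AT1G54790 (7.23) and CXE20 (6.31) the SND1 response beyond wt is listed because every same-numbered pair of arrays went down in wt cells and up in SND1 cells; this difference was not tested, since the genes were chosen on it. In AT5G16230 the VND6 pairs went -0.76, 0.01 and 0.20.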

How the results depend on the processing

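The VND6 rises of AT1G54790 and CXE20 from 0 h to 12 h kept their direction in every alternative run, at 4.17 to 6.14 and 5.28 to 6.36. The rise of CXE20 kept its call in each (limma adjusted p at most 4.53e-04), and that of AT1G54790 is a description. With the replicate number as a block the call of CXE20 did not change (limma adjusted p = 5.56e-07). The calls among the 21 list genes then went from 3 to 6 for VND6 and from 0 to 2 for SND1. No share of all probe sets is given for that setting. The VND6 change of AT5G16230, -0.18, was 0.11 from replicates 2 and 3 alone and -0.48 to 0.23 without 1 array. The difference of CXE20 between VND6 and wt cells at 0 h was 0.81 from replicates 2 and 3 alone, against 0.66 from all. It rests on wt arrays that had a part in the choice, so no test is given. The SND1 response beyond wt was 9.41 and 9.89 for AT5G16230 and AT1G54790 without a pseudocount and 5.62 and 5.29 with one 4 times larger, and without 1 array it ran from 6.97 to 7.95 and from 6.71 to 8.24.

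Calls over all probe sets hung on the replicates. The VND6 change had 8400 calls and 5238 with replicates 2 and 3 averaged. The VND6 response beyond wt had 2174, against 1049 from only the arrays compared, 7585 from replicates 2 and 3 alone, 126 with them averaged and 1099 to 3437 without 1 array, the ends being without VND6 replicates 2 and 1 at 12 h. VND6 against wt at 0 h had 1338, against 45, 7541 and 0 in the same 3 settings and 540 to 2939 without 1 array, the ends being without VND6 replicate 2 and wt replicate 1 at 0 h. The SND1 response had 923, against 5469 from replicates 2 and 3, 62 with them averaged and 463 to 1041 without 1 array. Among the 21 list genes, VND6 calls were 10 from replicates 2 and 3, 0 with them averaged and 2 to 5 without 1 array; SND1 calls were 1 with a filter at the 60th percentile, 1 from only the arrays compared, 9 from replicates 2 and 3 and 0 to 1 without 1 array. In wt cells 11 of the 21 list genes passed, beside 54.1% of all probe sets, 6 with replicates 2 and 3 averaged and 8 to 10 without 1 array. Of the 5 nearest patterns, 2, 1 and 1 were shared with those from 6 group means, and 4, 5 and 3 with those after quantile normalization, for AT5G16230, AT1G54790 and CXE20.

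Small values that changed sign were RCA in the VND6 response (0.03, against -0.060 without a pseudocount, -0.032 with replicates 2 and 3 averaged and -0.22 to 0.52 without 1 array), AT3G48460 in wt cells (0.13, against -0.016 after quantile normalization, -0.12 from replicates 2 and 3 and -0.12 to 0.40 without 1 array) and IRX15-L in wt cells (0.14 from replicates 2 and 3 and -0.76 to 0.25 without 1 array). The cause was not tested. Signals under the 40th percentile bound the 0 h levels of AT5G16230 and AT1G54790 poorly, so their folds depend on the pseudocount.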
